A study of Homo sapiens with 12 samples.

Results

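The 52 genes described here encode the proteins that license replication origins and copy DNA, from the origin recognition complex to the factors that restore chromatin behind the fork. They were listed by name, from what their products do, and were chosen with earlier results of these data known. All 52 were found among the 58347 genes of the count files under 1 identifier each, and all 52 passed the filter on low counts, which kept 16740 genes for testing. The study asked how the combination of vemurafenib and tretinoin acts in BRAF-mutant melanoma, and sequenced RNA from A375 cells, an established human melanoma cell line. The 12 samples were 3 replicates each of cells given the vehicle DMSO, tretinoin, vemurafenib, or vemurafenib and tretinoin together (the combination), for 8 h. The labels put 5 µM beside all 4 groups, DMSO among them, and do not give the amount of each drug in the combination. Vemurafenib is an inhibitor of the kinase made by mutant BRAF. Tretinoin, or all-trans retinoic acid, is a ligand of the retinoic acid receptors. Drugs were applied in triplicate to a single cell line, and nothing states that the replicates came from separate cultures, so p-values measure only the spread between these samples, which may be technical.

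In the G1 phase the origin recognition complex (ORC) marks origins, and CDC6 and CDT1 help it to load the MCM2-7 helicase onto DNA, the step called licensing. Geminin blocks CDT1 once S phase has begun, and the CDC7-DBF4 kinase, MCM10, CDC45 and the GINS complex turn the loaded helicase into an active one. Many of these genes are textbook targets of E2F transcription factors, which the RB protein restrains until cyclin D and its kinases inactivate it, and cyclin D1 is in turn induced through the MAP kinase pathway that mutant BRAF drives.

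Total counts per sample ran from 13510235 to 21534377, and the smallest library was tretinoin replicate 1. Values below are normalised counts, which are counts scaled by TMM factors to the mean library, and the TMM factors ran from 0.901 to 0.955 in DMSO and from 1.03 to 1.07 in the samples that received vemurafenib. All 10 genes of a list of MAP kinase output fell with vemurafenib relative to DMSO, among them SPRY4 (log2 fold change -6.55) and DUSP6 (-6.07), and 4 of 6 retinoid response genes rose with tretinoin, DHRS3 (named after its values were seen) by 2.91. Cyclin D1 (CCND1), singled out after its values were seen, stood at 12258 to 15998 normalised counts in DMSO and 655 to 751 with vemurafenib (log2 fold change -4.39, adjusted p = 3e-15, edgeR). Of 10 melanoma and neural crest markers, CSPG4 (mean 7017 in DMSO), MITF (318) and S100B (164) were present, whereas SOX10 was listed at 0 in all 12 samples and TYR at 0 in every DMSO, tretinoin and vemurafenib sample. The 10 markers summed to 6923 to 7991 in DMSO, 6336 to 7346 with tretinoin, 4638 to 4829 with vemurafenib and 3707 to 3997 with the combination, and of the 6 that could be tested CSPG4 fell (log2 fold change -0.85) and MITF rose (0.88) with vemurafenib. Markers of other cells were also summed. The 6 fibroblast markers summed to 281 to 328 in DMSO, 303 to 323 with tretinoin, 880 to 919 with vemurafenib and 633 to 715 with the combination, and 3 of the 4 that could be tested rose with vemurafenib. The 6 keratinocyte markers summed to 1388 to 1710.1 in DMSO, 914 to 1507 with tretinoin, 1630.1 to 1704 with vemurafenib and 1666 to 1957 with the combination, with KRT1 listed at 0 in every group, and KRT14 alone of 3 tested rose with vemurafenib (1.24). The 6 leukocyte markers summed to 67.7 to 111 in DMSO, 97 to 166 with tretinoin, 106 to 118 with vemurafenib and 114.5 to 156 with the combination, and PTPRC, 1 of 2 tested, rose with vemurafenib (1.36). CD68 was at 0 in DMSO and tretinoin, but 85.8% of its exon bases lie in other genes, where fragments were counted for neither. Relative to DMSO, 26.3% of all genes tested were called lower and 26.4% higher with vemurafenib, and 3.48% higher with tretinoin. The part of these markers in the results below was not tested.

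Relative to DMSO, vemurafenib lowered 39 of the 52 replication genes and raised none (edgeR quasi-likelihood test, Benjamini-Hochberg adjusted p below 0.05 over all 16740 genes). At an unadjusted p below 0.05, 2 were higher, and DESeq2 called 40 lower and 0 higher. The background was 26.3% of all genes tested called lower and 26.4% called higher, and 38.4% lower among the 9267 genes with a mean count at or above that of the lowest replication gene. Among the 3492 genes at or above the median replication gene, 48.5% were called lower and 12.4% higher, and their median log2 fold change was -0.19. The median log2 fold change of the 52 genes was -0.48, against 0.02 over all genes tested. Of the 52 values 48 were negative, as were 2544 of the 3492. In 42 genes every vemurafenib sample lay below every DMSO sample, where 30.9% of all genes tested and 1990 of the 3492 did so. The 52 genes together made up 0.576% to 0.617% of all counts in DMSO samples, 0.601% to 0.622% with tretinoin, 0.462% to 0.470% with vemurafenib and 0.475% to 0.484% with the combination. With total counts alone as the scaling, which moved the median log2 fold change of all genes to 0.21, the split was 29 lower and 5 higher, and 15.7% of all genes were then lower and 39.3% higher. Fewer cells of a kind and less RNA per cell cannot be told apart in bulk samples.

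**Figure D1:**
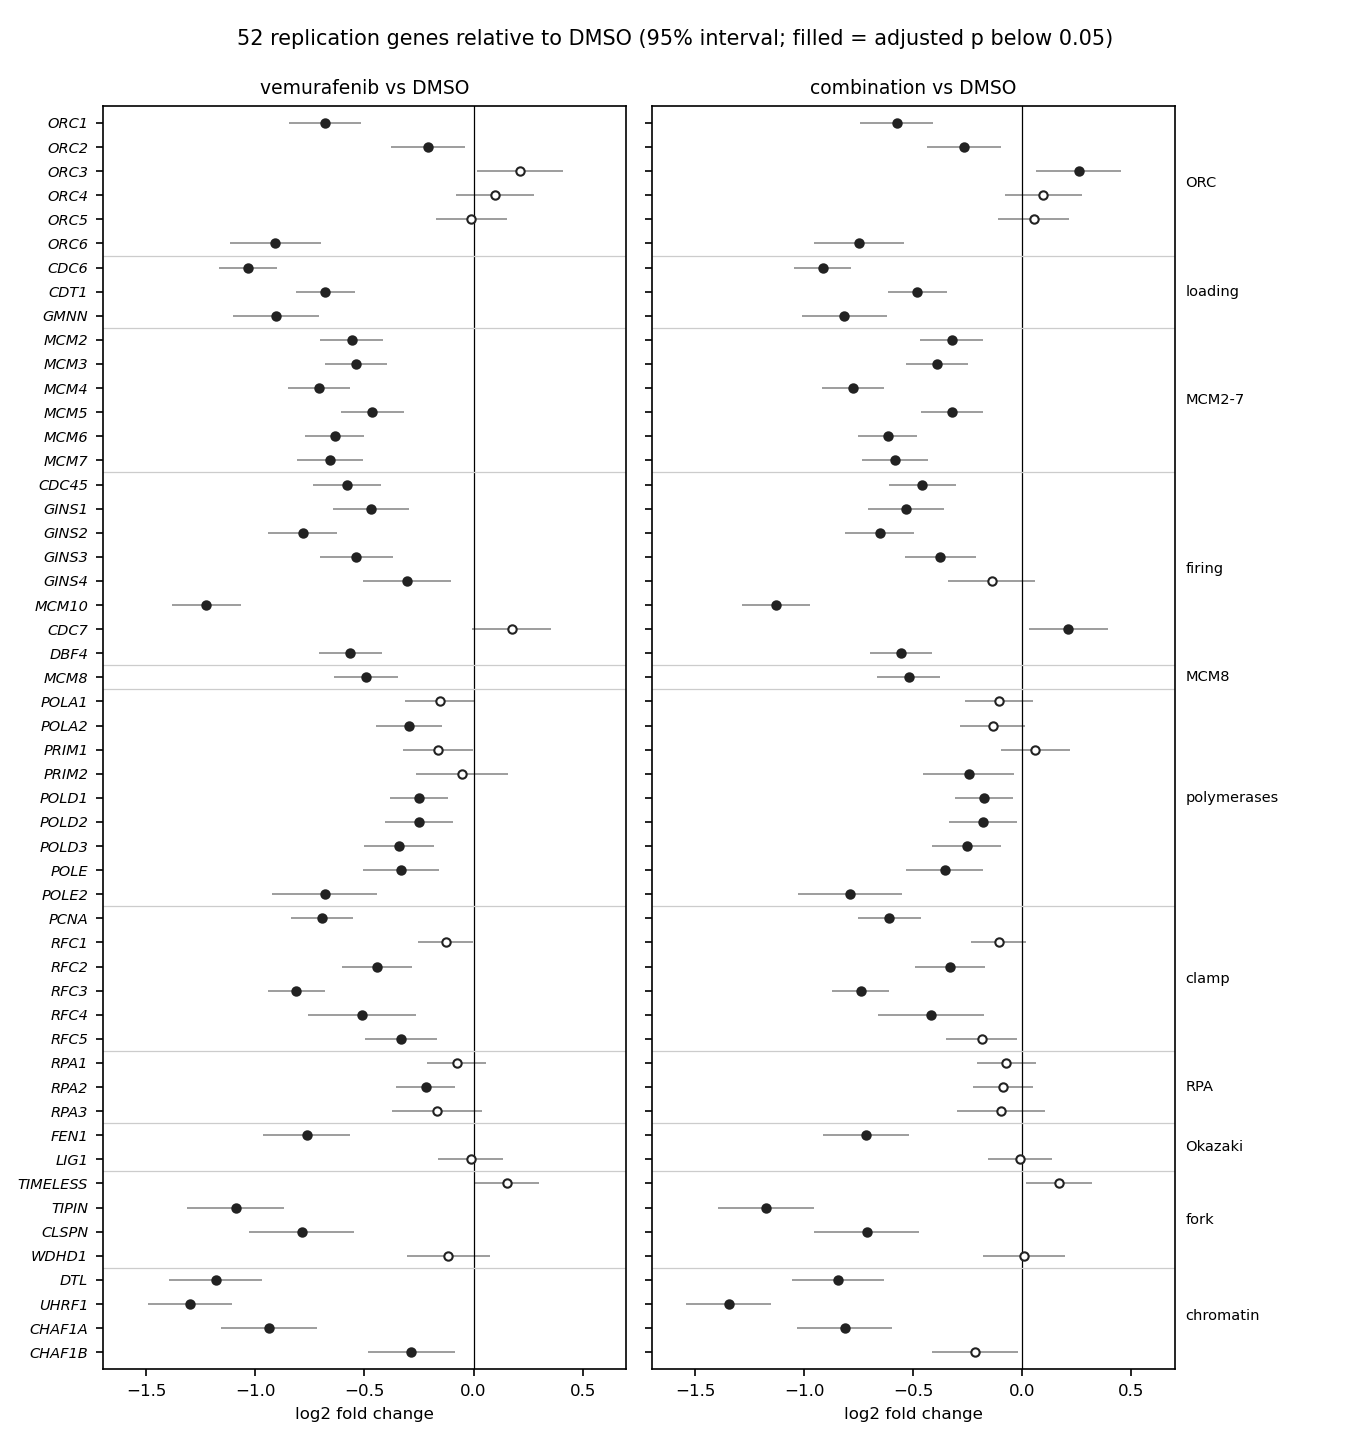
Log2 fold change relative to DMSO (x axis) of each of the 52 replication genes, grouped by role, for vemurafenib (left) and the combination (right), with 95% intervals, filled where the adjusted p was below 0.05. Vemurafenib values run from -1.30 (UHRF1) to 0.21 (ORC3), 39 filled points lie below 0 and none above, and on the right 35 filled points lie below 0 and 2 above.

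Promoter sequences are shown for 4 of the genes because they pair the presence or absence of an E2F-type motif with a fall or no call under vemurafenib. Each is the stretch of 250 bases before a transcription start in RefSeq (GRCh38.p14), on the gene's own strand. UHRF1 (chr19:4909894-4910143, plus strand, 1 of its 3 RefSeq windows) and MCM6 (chr2:135876444-135876693, minus strand) hold a motif and fell. MCM10 (chr10:13161308-13161557, plus strand) holds none and fell, and POLA1 (chrX:24693668-24693917, plus strand) holds motifs and was not called. Exons of GENCODE 29 cover 4 of these bases for MCM10 and 0 for the other 3. Capitals mark TTTCCCGC, TTTCGCGC, TTTGCCGC or TTTGGCGC, or the same forms without their first T, on either strand.
UHRF1: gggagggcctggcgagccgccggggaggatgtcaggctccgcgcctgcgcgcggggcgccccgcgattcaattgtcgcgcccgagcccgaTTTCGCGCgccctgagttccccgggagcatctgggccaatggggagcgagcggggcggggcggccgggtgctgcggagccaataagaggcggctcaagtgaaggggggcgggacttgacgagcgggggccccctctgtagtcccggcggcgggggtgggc
MCM6: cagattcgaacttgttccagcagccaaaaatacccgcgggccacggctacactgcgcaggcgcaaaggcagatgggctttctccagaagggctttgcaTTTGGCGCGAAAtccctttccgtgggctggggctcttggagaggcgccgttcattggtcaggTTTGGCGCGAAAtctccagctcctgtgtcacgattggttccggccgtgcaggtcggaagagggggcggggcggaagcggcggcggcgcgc
MCM10: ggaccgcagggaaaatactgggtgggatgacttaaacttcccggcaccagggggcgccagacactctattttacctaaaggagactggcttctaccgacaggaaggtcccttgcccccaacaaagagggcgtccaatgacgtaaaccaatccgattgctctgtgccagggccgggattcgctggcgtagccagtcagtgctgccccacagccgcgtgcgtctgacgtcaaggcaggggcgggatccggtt
POLA1: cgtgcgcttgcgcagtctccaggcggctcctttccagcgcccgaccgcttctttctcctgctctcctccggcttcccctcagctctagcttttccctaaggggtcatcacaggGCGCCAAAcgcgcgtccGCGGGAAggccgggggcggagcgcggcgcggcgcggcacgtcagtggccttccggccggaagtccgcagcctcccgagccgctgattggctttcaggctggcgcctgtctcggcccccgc
In the MCM6 promoter the capitals come at 2 places, and at each a TTTGGCGC on the printed strand overlaps a TTTCGCGC on the other. The matches begin 152, 148, 90 and 86 bases before the start. The UHRF1 match, TTTCGCGC, begins 160 bases before the start of this window, and the 8-letter match of POLA1, TTTGGCGC, 137 bases before.

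Promoter windows of 300 bases (250 before and 50 after each start) were given for 46 of the 52 genes. An 8-letter form, on either strand, was in a window of 24 of the 46 (52.2%), against 3.99% of the 27305 genes with a window and 6.47% of the 11167 of those that were tested. The 7-letter forms were in 35 of 46 (76.1%), against 15.3% and 24.5%, and every 8-letter match also holds a 7-letter one. TTTGAA, a form of the CHR element found in genes that peak in mitosis, was in 1 of 46 (2.17%), against 18.2% of all and 13.9% of tested genes. CCAAT, the box that NF-Y binds, was in 28 of 46 (60.9%), against 39.7% and 43%. With vemurafenib 20 of the 24 genes with an 8-letter form and 14 of the 22 without were called lower (median log2 fold changes -0.65 and -0.27). For the 7-letter forms it was 26 of 35 with and 8 of 11 without (-0.54 and -0.25), and for CCAAT, which is no E2F form, 22 of 28 with and 12 of 18 without (-0.61 and -0.37). These are descriptions of letters in a window, with no test, and a match is not a site.

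Among the 6 ORC subunits, vemurafenib lowered 3 (50%). For each role the background was 26.3% lower over all genes tested. It was 48.5% over genes at or above the median replication gene, near the ORC share. ORC6, the smallest and least conserved subunit, stood at 1184, 936 and 1154 normalised counts in DMSO, 958, 1167 and 1220.4 with tretinoin, 580.0, 559.9 and 607 with vemurafenib, and 649, 686 and 614 with the combination. All 6 samples with vemurafenib lay below all 6 without it. The log2 fold change was -0.91 ± 0.099 (SE, n = 3 per group, edgeR adjusted p = 6.4e-07). ORC1, the subunit whose own level cycles, fell by 0.68 (1427 ± 114 in DMSO and 890.4 ± 48.5 with vemurafenib, mean ± SD of 3 samples). ORC2 fell by 0.21 (adjusted p = 0.037), a call that 10 of the 22 alternative settings did not make. ORC5 had the smallest change of the complex, at 688, 694 and 753 normalised counts in DMSO, 886, 851 and 754 with tretinoin, 704, 709 and 710.1 with vemurafenib, and 686, 757 and 771 with the combination. Its vemurafenib samples lay within the DMSO range, with a log2 fold change of -0.010 and a 95% interval of -0.17 to 0.15. ORC4 (0.098, interval -0.080 to 0.28) and ORC3 (0.21, adjusted p = 0.063) were not called, although every vemurafenib sample of both lay above every DMSO sample. In exons that overlap other genes, ORC4 shares 6.58% of its bases, and fragments there were counted for neither gene.

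All 3 genes of helicase loading fell. CDC6, the ATPase that joins ORC to recruit the helicase, stood at 2944, 3121 and 3263 normalised counts in DMSO, 3099.9, 3292 and 3149.5 with tretinoin, 1537, 1541 and 1477 with vemurafenib, and 1642, 1682 and 1624 with the combination. The 6 samples with vemurafenib ran from 1477 to 1682, and no DMSO or tretinoin sample was below 2944. The log2 fold change was -1.03 ± 0.063 (adjusted p = 3.9e-10), a change of -51.2%. GMNN, which encodes geminin, the inhibitor of CDT1, stood at 1424, 1364 and 1403 normalised counts in DMSO, 1052, 1414 and 1416 with tretinoin, 749.9, 778 and 707 with vemurafenib, and 831, 789 and 762 with the combination. Tretinoin replicate 1 was lower than the other two tretinoin samples and still above all vemurafenib and combination samples. For GMNN the log2 fold change with vemurafenib was -0.91 ± 0.094 (adjusted p = 3.4e-07). CDT1, the loading factor, had the smallest change of the 3, at 2358, 2320.4 and 2356 normalised counts in DMSO, 2096, 2245 and 2226 with tretinoin, 1437, 1446 and 1507 with vemurafenib, and 1704, 1564 and 1770.4 with the combination. The 3 combination samples of CDT1 lay between the DMSO and vemurafenib samples with no overlap. Against DMSO the vemurafenib log2 fold change of CDT1 was -0.68 ± 0.064 (adjusted p = 1.1e-07).

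All 6 subunits of the MCM2-7 helicase fell with vemurafenib, within the range -0.71 to -0.46. MCM4 fell most and stood at 8264, 7657 and 8794 normalised counts in DMSO, 9023, 8538 and 8254 with tretinoin, 5106, 5051 and 4956 with vemurafenib, and 4778, 4747 and 4903 with the combination. Combination samples of MCM4 lay below even the vemurafenib samples, and MCM4 was the 1 gene of the 52 to do so, where 12.5% of all genes tested did. The vemurafenib log2 fold change was -0.71 ± 0.067 (adjusted p = 1.1e-07). MCM5 changed least of the 6, and stood at 3716, 3686 and 3548 normalised counts in DMSO, 3145, 3672 and 3536 with tretinoin, 2687, 2534 and 2718 with vemurafenib, and 2876, 2866 and 3015 with the combination. Its DMSO and vemurafenib samples did not overlap (log2 fold change -0.46 ± 0.068, adjusted p = 1.9e-05). MCM7 (-0.66), MCM6 (-0.64), MCM2 (-0.56) and MCM3 (-0.54) lay between. As RPKM, counts scaled by library size and by the exon length of the gene, MCM7 had the highest level of the complex in DMSO (164) and MCM5 the lowest (27.5), and with vemurafenib the level of MCM7 was 104. MCM8, a relative of these subunits that acts in repair, stood at 1580.3, 1633 and 1614 normalised counts in DMSO, 1822, 1800.1 and 1607 with tretinoin, 1119, 1208 and 1097 with vemurafenib, and 1172, 1126 and 1065 with the combination. Its vemurafenib samples lay below its DMSO samples, with a log2 fold change of -0.49 ± 0.07 (adjusted p = 1.2e-05).

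Of the 8 genes of helicase activation and origin firing, 7 fell. MCM10, a scaffold that binds the helicase as it is activated, had the largest change of the 8 and stood at 1574, 1426 and 1604 normalised counts in DMSO, 1478, 1698 and 1549 with tretinoin, 651, 641 and 679.7 with vemurafenib, and 741, 689 and 678 with the combination. The 6 samples with vemurafenib ran from 641 to 741, and the 6 without from 1426 to 1698. The log2 fold change was -1.23 ± 0.074 (adjusted p = 3.9e-10), in the gene whose printed promoter holds no E2F-type form. CDC7, the catalytic subunit of the kinase that starts firing, went the other way, at 318, 309 and 317 normalised counts in DMSO, 322, 392 and 365 with tretinoin, 355, 358 and 352 with vemurafenib, and 377, 359 and 357 with the combination. All 3 vemurafenib samples were above all 3 DMSO samples, yet the difference was not called (log2 fold change 0.17, interval -0.008 to 0.36, adjusted p = 0.1). DBF4, the activating partner of CDC7, fell by 0.57 (adjusted p = 2.2e-06). CDC45, part of the active helicase, fell by 0.58, and of the GINS subunits that bind beside it GINS2 fell by 0.78, GINS3 by 0.54, GINS1 by 0.47 and GINS4 by 0.30. The call of GINS4 was lost without DMSO replicate 3 or vemurafenib replicate 2. GINS4 shares 23.6% and GINS3 10.9% of its exon bases with genes on the opposite strand.

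**Figure D2:**
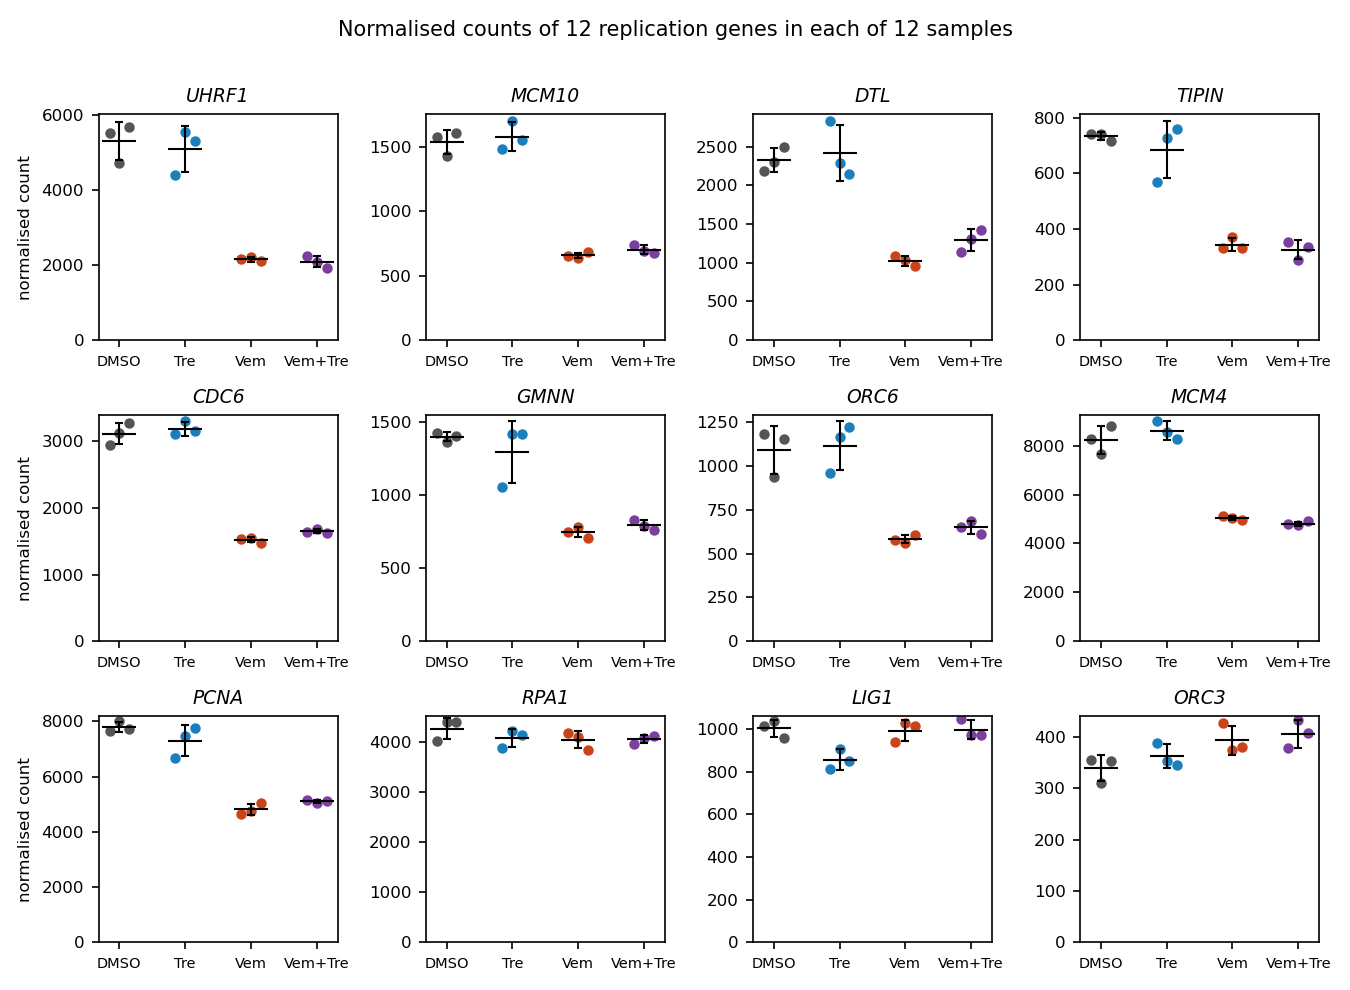
Normalised counts (y axis, from 0) of 12 replication genes in each of the 12 samples by group (x axis), with the mean and SD of each group of 3. UHRF1 lies at 4730.0 to 5686 in DMSO and 2097 to 2223 with vemurafenib, and LIG1 at 957 to 1036 and 938 to 1026.

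Of 9 primase and replicative polymerase genes, 6 fell (66.7%, against 48.5% of genes at or above the median replication gene). The median log2 fold change over the 9 was -0.25. POLE2, the second subunit of the leading strand polymerase epsilon, fell most and stood at 285, 242 and 258 normalised counts in DMSO, 279.5, 308 and 287 with tretinoin, 144, 171 and 175 with vemurafenib, and 171, 138 and 147 with the combination. The highest sample with vemurafenib was 175 and the lowest without was 242 (log2 fold change -0.68 ± 0.11, adjusted p = 7.5e-05). PRIM2, the large primase subunit, changed least, at 331, 356 and 400.5 normalised counts in DMSO, 413, 393 and 367 with tretinoin, 368, 349 and 333 with vemurafenib, and 272, 338 and 307 with the combination. The vemurafenib and DMSO samples of PRIM2 overlapped, with a log2 fold change of -0.053 and an interval of -0.26 to 0.16. POLE, the catalytic subunit of polymerase epsilon, fell by 0.33, and the polymerase delta subunits POLD3, POLD1 and POLD2 by 0.34, 0.25 and 0.25, the call of POLD2 being lost without vemurafenib replicate 1. POLA2, the accessory subunit of the polymerase that extends primers, fell by 0.29. When scaling by upper quartiles or by total counts, POLE, POLD1, POLD2 and POLA2 lost their calls. POLA1, the catalytic partner of POLA2 (-0.16, adjusted p = 0.087), and the small primase subunit PRIM1 (-0.16, adjusted p = 0.081) were not called. PRIM2 shares a stretch of 1071 exon bases with another gene of the annotation (identity of at least 98%), and POLA2 one of 2014 bases. DBF4 (924 bases), MCM2 (776) and ORC6 (660) are among the other replication genes with such a stretch.

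Of the 6 genes of the sliding clamp and its loader, 5 fell. RFC3, a small subunit of the clamp loader RFC, changed most and stood at 2168, 2142 and 2374 normalised counts in DMSO, 2391, 2350.4 and 2231 with tretinoin, 1258, 1294 and 1257 with vemurafenib, and 1331, 1326 and 1342 with the combination. The 3 vemurafenib samples were close together and lay well below all DMSO samples (log2 fold change -0.81 ± 0.063, adjusted p = 9.2e-09). RFC1, the large loader subunit, stood at 1986, 1896 and 2003 normalised counts in DMSO, 2019, 2050.0 and 1907 with tretinoin, 1799, 1794 and 1793 with vemurafenib, and 1853, 1854 and 1751 with the combination. Although its vemurafenib samples were all below its DMSO samples, RFC1 was not called (log2 fold change -0.13, interval -0.26 to -0.001, adjusted p = 0.085). PCNA, the clamp itself, fell by 0.69 (7796 ± 191 to 4819 ± 199). It had the highest level of all 52 genes in DMSO, an RPKM of 293, ahead of MCM7 and FEN1 (137). The loader subunits RFC4, RFC2 and RFC5 fell by 0.51, 0.44 and 0.33.

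Of the single-strand binding protein RPA and the enzymes that finish the lagging strand, 2 of 5 fell. That share was not above the 48.5% of genes at or above the median replication gene. RPA2, the middle subunit of RPA, stood at 1931, 1926 and 2068 normalised counts in DMSO, 1982, 2228 and 2115 with tretinoin, 1744, 1657 and 1688 with vemurafenib, and 1834, 1809 and 1927 with the combination. Its vemurafenib samples were all below its DMSO samples (log2 fold change -0.22 ± 0.065, adjusted p = 0.0088). The call of RPA2 was lost when scaling by upper quartiles or by total counts. RPA1, the large subunit, stood at 4020.0, 4386 and 4385 normalised counts in DMSO, 3868, 4218 and 4140.3 with tretinoin, 4171, 4102 and 3844 with vemurafenib, and 3962, 4072 and 4124 with the combination. The groups overlapped, and the log2 fold change was -0.078 with an interval of -0.21 to 0.059. RPA3 was not called (-0.17, adjusted p = 0.16). FEN1, the nuclease that removes the flaps of Okazaki fragments, stood at 6006, 6668 and 5679 normalised counts in DMSO, 4252, 5404 and 5459.6 with tretinoin, 3391, 3618 and 3794 with vemurafenib, and 4047, 3583 and 3530.1 with the combination. Every tretinoin sample of FEN1 lay below every DMSO sample, and every vemurafenib sample lower still (vemurafenib log2 fold change -0.77 ± 0.094, adjusted p = 2.7e-06). Tretinoin samples all lay below DMSO samples in 8 of the 52 genes and in 12.9% of all genes tested. They did so in 951 of the 3492 genes at or above the median replication gene, and edgeR did not call FEN1 with tretinoin. LIG1, the ligase that joins the fragments, stood at 1016, 1036 and 957 normalised counts in DMSO, 811, 908 and 851 with tretinoin, 938, 1026 and 1014 with vemurafenib, and 1047, 970.5 and 970.3 with the combination. DMSO, vemurafenib and combination samples of LIG1 overlapped, and the 3 tretinoin samples were the lowest. The vemurafenib log2 fold change was -0.014 with an interval of -0.16 to 0.13.

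Of 4 fork protection genes, 2 fell (50%), near the 48.5% of genes at or above the median replication gene. TIPIN, a fork protection factor, stood at 742, 741 and 717 normalised counts in DMSO, 568, 727 and 759 with tretinoin, 330.4, 369.5 and 331 with vemurafenib, and 354, 287 and 334 with the combination, and its exons share 21.0% of their bases with RPL9P25 on the same strand. Samples with vemurafenib did not overlap samples without (log2 fold change -1.09 ± 0.1, adjusted p = 1.4e-07). Its partner TIMELESS was not called and had a positive value, 0.15 (adjusted p = 0.081), with all vemurafenib samples above all DMSO samples. CLSPN, which encodes claspin, the mediator between stalled forks and CHEK1, stood at 1670.0, 1477 and 1619 normalised counts in DMSO, 1182, 1693 and 1674 with tretinoin, 900.1, 872 and 990.3 with vemurafenib, and 1102, 908 and 901 with the combination. Tretinoin replicate 1 was lowest of the 6 samples without vemurafenib and still above every sample with it. For CLSPN the log2 fold change was -0.79 ± 0.12 (adjusted p = 1.8e-05). WDHD1, which links the helicase to polymerase alpha, stood at 387, 339 and 417 normalised counts in DMSO, 372, 415 and 390.0 with tretinoin, 363, 354 and 339 with vemurafenib, and 403, 366 and 384 with the combination. The DMSO samples of WDHD1 overlapped those of each treatment, with a vemurafenib log2 fold change of -0.12 and an interval of -0.31 to 0.074.

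All 4 genes of PCNA-coupled degradation, methylation upkeep and chromatin assembly fell, with a median of -1.06. UHRF1, which brings the maintenance methyltransferase to newly copied DNA, had the largest fall of the 52 genes with vemurafenib and stood at 5523, 4730.0 and 5686 normalised counts in DMSO, 4394, 5550.3 and 5305 with tretinoin, 2158, 2223 and 2097 with vemurafenib, and 2241, 2092 and 1936 with the combination. The 6 samples with vemurafenib ran from 1936 to 2241 and the other 6 from 4394 to 5686. Its log2 fold change was -1.30 ± 0.091 (adjusted p = 2.7e-09), a change of -59.4%. A stretch of 1423 bases of UHRF1 exon has a copy of at least 98% identity in another gene, and counts of either are uncertain there. DTL, the ubiquitin ligase adaptor that destroys CDT1 on PCNA, stood at 2190.5, 2298 and 2489.7 normalised counts in DMSO, 2824, 2289 and 2141 with tretinoin, 1084, 1039 and 953 with vemurafenib, and 1139.5, 1312 and 1427 with the combination. Combination samples of DTL lay above all vemurafenib samples and below all DMSO samples (vemurafenib log2 fold change -1.18 ± 0.1, adjusted p = 3.4e-08). CHAF1A, the large subunit of the histone chaperone CAF-1, stood at 2854, 2848 and 2856 normalised counts in DMSO, 2029.5, 2772 and 2689 with tretinoin, 1385, 1482 and 1604 with vemurafenib, and 1844, 1489 and 1536 with the combination. No sample with vemurafenib reached the lowest without (log2 fold change -0.94 ± 0.1, adjusted p = 7.9e-07). CHAF1B, the middle CAF-1 subunit, stood at 582, 463 and 546 normalised counts in DMSO, 579, 507 and 551 with tretinoin, 442, 438 and 426 with vemurafenib, and 411, 489 and 469 with the combination. The DMSO and vemurafenib samples were apart (log2 fold change -0.29, adjusted p = 0.018), but the call was lost without DMSO replicate 1 or DMSO replicate 3.

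**Figure D3:**
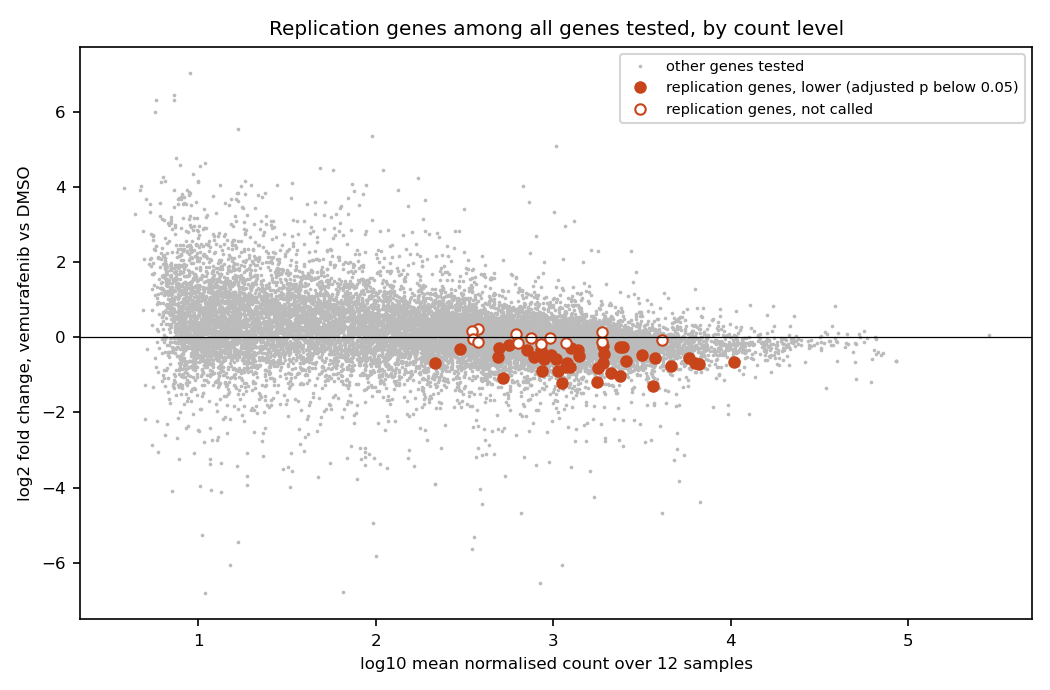
Log2 fold change with vemurafenib relative to DMSO (y axis) against the log10 mean normalised count over 12 samples (x axis) for 16740 genes, with the 52 replication genes in colour, filled where called. The 39 filled points all lie below 0, between -1.30 and -0.21, and replication gene means start at 217 counts.

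The combination was compared with the same 3 DMSO samples as vemurafenib. It lowered 35 of the 52 genes and raised 2, where 26.5% of all genes tested were lower and 27.1% higher, and the median log2 fold change was -0.37. Among the 3492 genes at or above the median replication gene in mean count, 48.2% were lower and 13.7% higher, with a median of -0.18. UHRF1 had the largest fall (-1.35), followed by TIPIN (-1.18), MCM10 (-1.13) and CDC6 (-0.92). By role, all 3 loading genes and all 6 MCM2-7 genes were lower, as were 6 of 8 firing genes, 6 of 9 polymerase genes and 3 of 6 ORC genes, and none of the 3 RPA genes. Without DMSO replicate 3 the polymerase count was 3 of 9, since PRIM2, POLD1 and POLD2 lost their calls, and these were made in 8, 13 and 9 of the 22 alternative settings. The 2 genes called higher were ORC3 (0.26, adjusted p = 0.025) and CDC7 (0.21, adjusted p = 0.047). DESeq2 called 34 lower and 0 higher, so neither was called by it. ORC3 also lost its call without DMSO replicate 2, combination replicate 2 or combination replicate 3. CDC7 kept its call in 5 of 22 alternative settings, and of the samples left out in turn its call remained only without tretinoin replicate 1. Scaling by total counts alone gave 28 lower and 6 higher, with 17.4% of all genes lower and 37.3% higher.

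Relative to tretinoin alone, the combination lowered 37 genes and raised 1, where 25% of all genes tested were lower and 24.1% higher. Among genes at or above the median replication gene, 40.3% were lower and 15.1% higher. The median log2 fold change of the 52 was -0.37, against -0.11 over those genes. UHRF1 (-1.28), MCM10 (-1.17), TIPIN (-1.08) and CDC6 (-0.95) had the lowest values. LIG1 was the gene called higher (0.21, adjusted p = 0.017), from 811 to 908 with tretinoin to 970 to 1047 with the combination, and its call was lost without tretinoin replicate 3 or combination replicate 1.

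**Figure D4:**
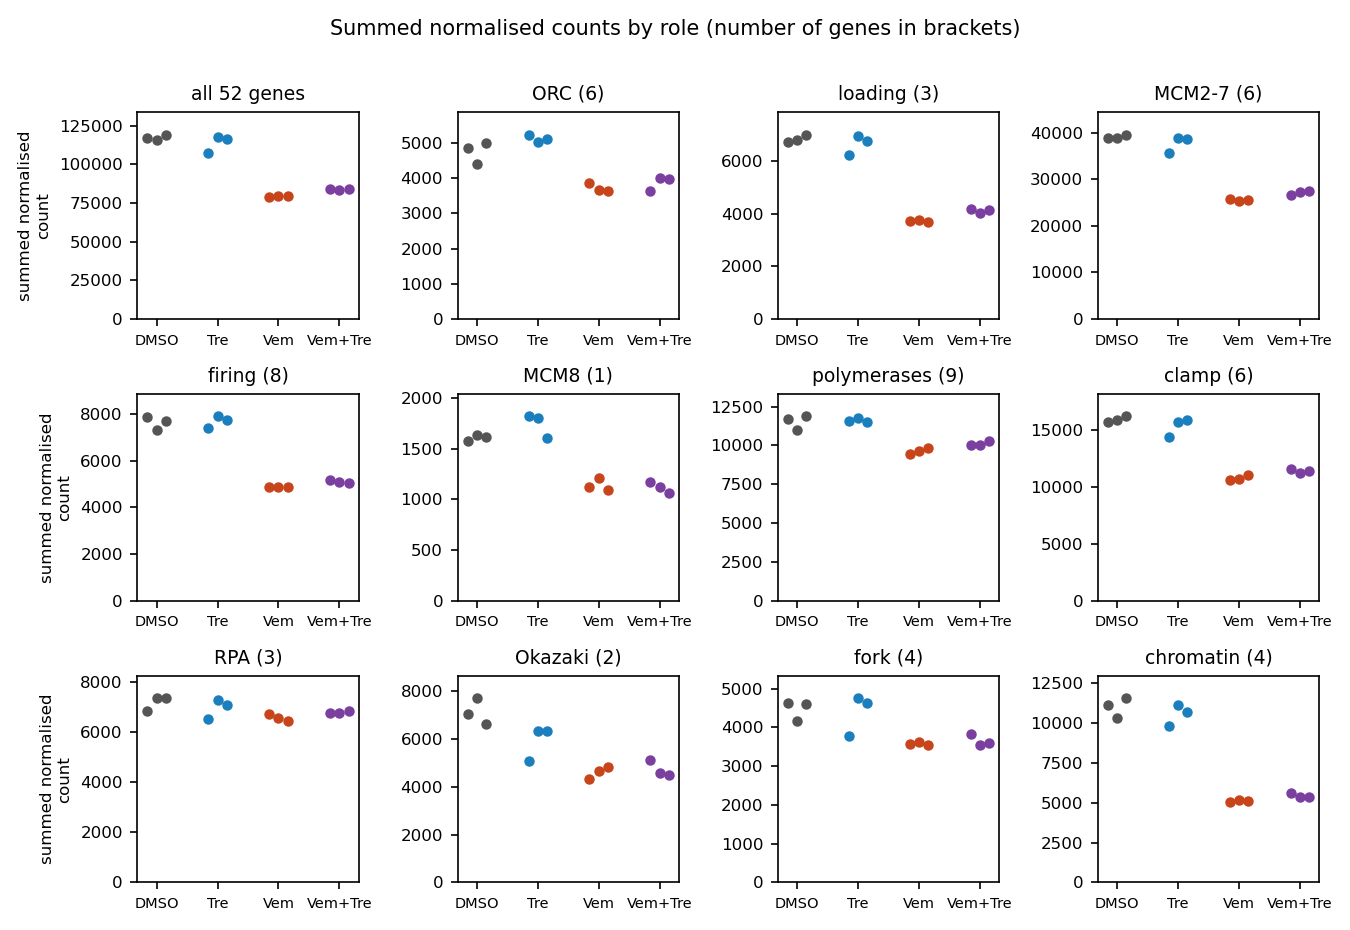
Summed normalised counts (y axis, from 0) of all 52 genes and of each role in each of the 12 samples by group (x axis). The 52-gene sum lies at 115559 to 119170 in DMSO, 107530 to 117451 with tretinoin, 79028 to 79478 with vemurafenib and 83055 to 83739 with the combination.

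Tretinoin alone changed none of the 52 genes relative to DMSO at an adjusted p below 0.05 with edgeR, where 2.2% of all genes tested were lower and 3.48% higher. At an unadjusted p below 0.05, 3 were lower (5.77%) and 5 higher (9.62%), where 12% and 11.4% of all genes tested were, and DESeq2 called 1 lower, LIG1. The median log2 fold change was 0.024, and the values ran from -0.28 (FEN1, adjusted p = 0.09) to 0.24 (GINS3, adjusted p = 0.076). LIG1 had a value of -0.23 (adjusted p = 0.073) and an interval of -0.38 to -0.076. Over all 52 genes the 95% intervals lay between -0.48 and 0.40 on the log2 scale. Tretinoin replicate 1, the smallest library, had the lowest 52-gene sum of its group, and without it the count of genes called stayed at 0.

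With tretinoin added to vemurafenib, edgeR called none of the 52 genes in either direction, where 2.2% of all genes tested were lower and 2.27% higher. At an unadjusted p below 0.05, 6 were higher (11.5%) and 0 lower, where 6.48% and 7.71% of all genes tested were, and DESeq2 called 1 higher, MCM2. Of the 52 values 42 were positive, with a median of 0.07 against 0.004 over all genes tested. In 18 genes every combination sample lay above every vemurafenib sample, as in 11.7% of all genes tested. Among the 3492 genes at or above the median replication gene, 1785 values were positive, with a median of 0.003. In 480 of those every combination sample was higher. The 52 genes were measured in the same samples, so their signs are not independent, and the difference was not tested. The largest values were those of DTL (0.34, interval 0.12 to 0.55, adjusted p = 0.078), MCM2 (0.23, interval 0.092 to 0.38, adjusted p = 0.062) and PRIM1 (0.22, adjusted p = 0.12). CDT1 had 0.20 (adjusted p = 0.11). MCM2, singled out here for its value, stood at 6470.2, 7163 and 6755 normalised counts in DMSO, 5916, 6653 and 6476 with tretinoin, 4705, 4644 and 4486 with vemurafenib, and 5179, 5480.2 and 5623 with the combination, and its combination samples lay between the DMSO and vemurafenib samples. Without tretinoin replicate 1, which is in neither group compared, DTL, MCM2 and CDT1 were called higher. The filter, the scaling and the shared spread were all estimated again in that fit, which tested 17119 genes. Of these, 3.14% were called higher and 3.7% lower. The lowest value was that of PRIM2 (-0.19, interval -0.40 to 0.015).

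**Figure D5:**
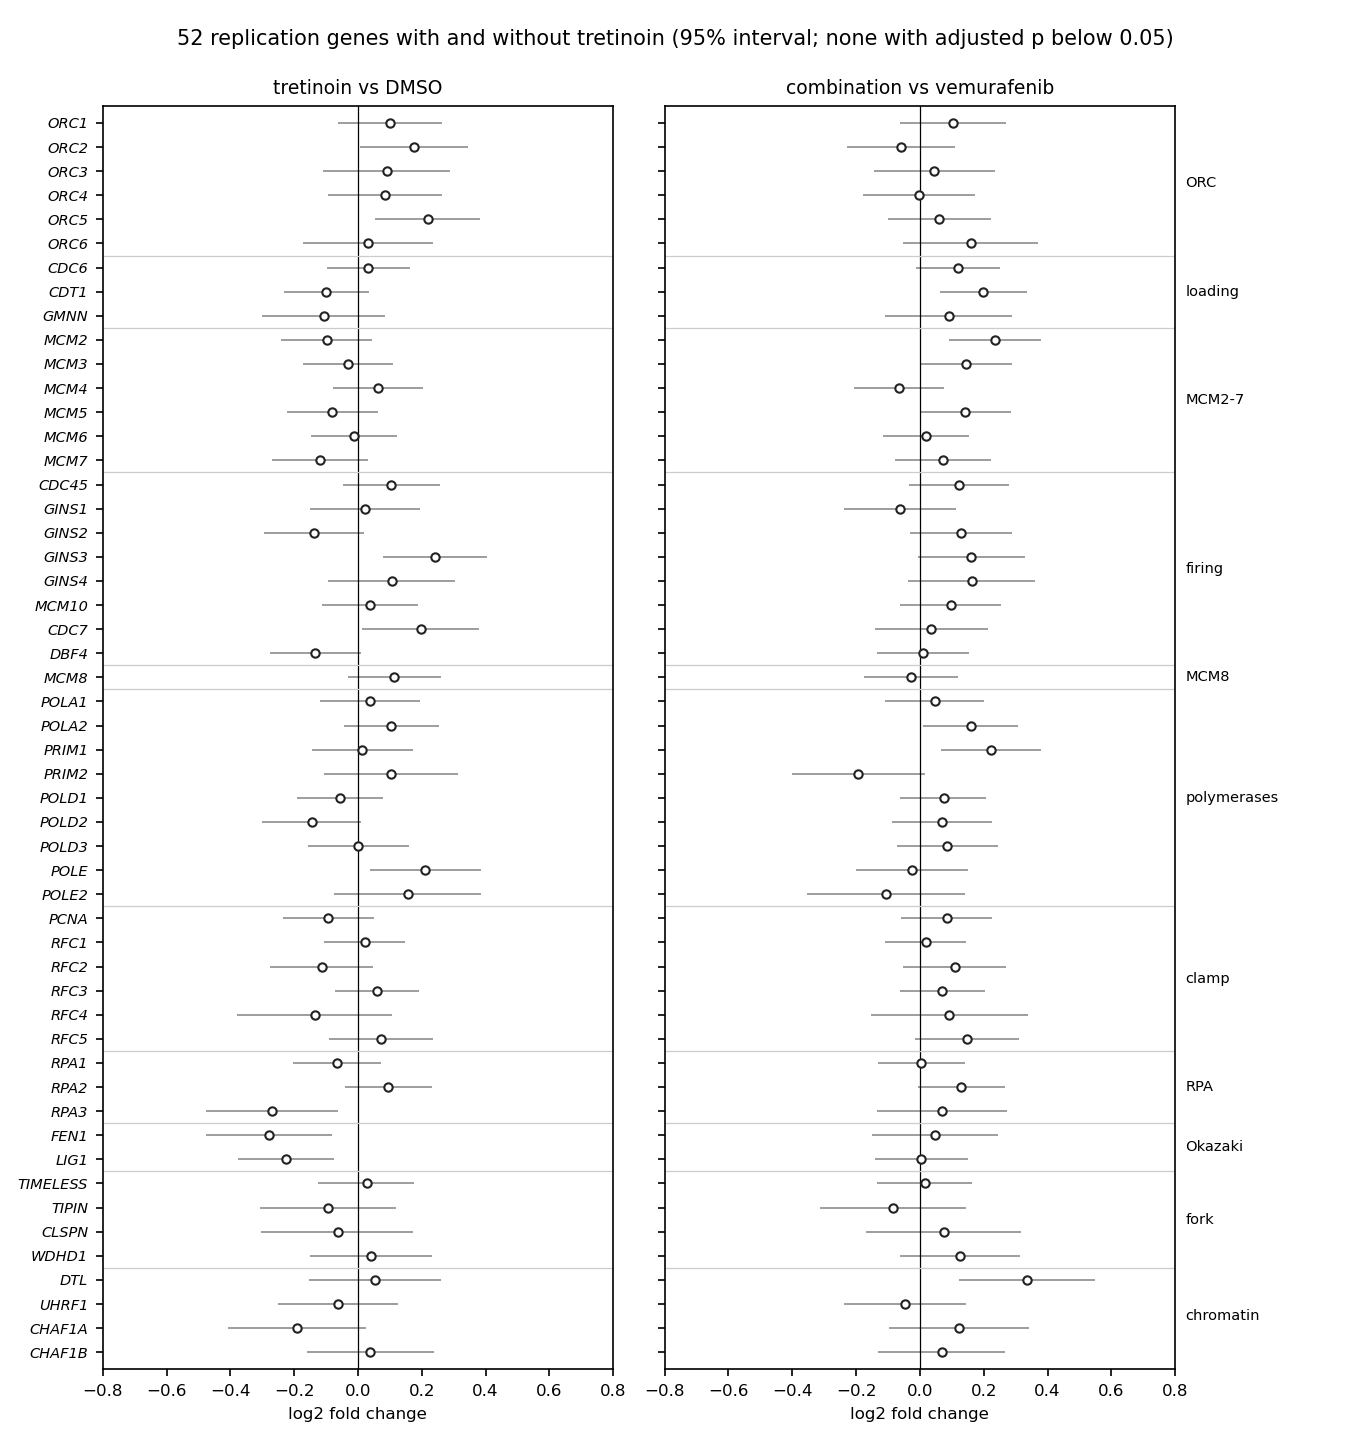
Log2 fold change (x axis) of each of the 52 genes for tretinoin against DMSO (left) and for the combination against vemurafenib (right), with 95% intervals, none called at an adjusted p below 0.05. The left values run from -0.28 (FEN1) to 0.24 (GINS3) and the right values from -0.19 (PRIM2) to 0.34 (DTL).

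The interaction, which asks whether tretinoin acted differently with and without vemurafenib, was called for none of the 52 genes by edgeR, where 0.424% of all genes tested were lower and 0.382% higher. At an unadjusted p below 0.05, 1 was lower and 8 higher (15.4%), and DESeq2 called 1 higher, MCM2. Among genes at or above the median replication gene in mean count 15.2% were higher at that level, with a median of 0.060, so the share and the median of the 52 genes, 0.064, were near that background. The largest interaction values were 0.34 (RPA3), 0.33 (MCM2) and 0.33 (FEN1), and the smallest adjusted p was 0.13 (MCM2). The interaction interval of MCM2 ran from 0.13 to 0.54.

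Further genes of replication, from a second list of 38 of which 37 passed the filter, were also measured. Vemurafenib lowered 22 and raised 1 relative to DMSO (59.5% lower, against 26.3% of all genes tested and 48.5% of those at or above the median replication gene), with a median log2 fold change of -0.29. CDC25A, the phosphatase that activates CDK2, stood at 2465, 2993 and 2777 in DMSO and 733, 810 and 775 with vemurafenib (log2 fold change -1.83 ± 0.077, adjusted p = 2.9e-12). DSCC1, part of an alternative clamp loader, fell by 1.19, and RAD17, of the checkpoint clamp loader, rose by 0.32. Tretinoin lowered 0 of the 37 with edgeR (5 at an unadjusted p below 0.05, and 2 with DESeq2) and raised 2, against 2.2% and 3.48% of all genes tested. The combination lowered 19 and raised 2 relative to DMSO (51.4% lower, against 26.5% of all genes tested and 48.2% of those at or above the median replication gene).

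The E2F and pocket protein list of 13 genes had 8 lower and 2 higher with vemurafenib (61.5% and 15.4%, against 26.3% and 26.4% of all genes tested), at a median of -0.50. Of genes at or above the median replication gene, 48.5% were lower and 12.4% higher. E2F1, the activator of G1/S genes, stood at 2125, 2228 and 2152 in DMSO and 865, 869 and 859 with vemurafenib. The groups were far apart (log2 fold change -1.33 ± 0.066, adjusted p = 3.2e-11). E2F3, a further activator, fell by 0.84, while the pocket protein RBL2, a repressor in resting cells, rose by 0.30 and the dimer partner TFDP2 by 0.24. With the combination edgeR called 7 of the 13 lower and 0 higher than in DMSO (1 higher at an unadjusted p below 0.05, and 0 with DESeq2), against 26.5% and 27.1% of all genes tested. The share lower was 53.8%, near the 48.2% of genes at or above the median replication gene, of which 13.7% were higher. With tretinoin alone edgeR and DESeq2 called 0 of the 13, and 1 was higher at an unadjusted p below 0.05.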

How the data were processed

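Polyadenylated RNA of A375 cells was sequenced from strand-specific libraries of 12 samples (4 groups of 3). Per the labels and the study's methods, reads were aligned with STAR 2.5.3a to GRCh38.p10, and fragments over the exons of GENCODE 27 genes were counted in union mode with the strand ignored, so a fragment over exons of a pair of overlapping genes was counted for neither. The authors deposited raw counts, 1 file per sample, with replicates not pooled. Groups and replicate numbers came from the sample labels.

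Genes were filtered with filterByExpr, scaled by TMM and fitted with edgeR 4.0.16 (glmQLFit and glmQLFTest, R 4.3.3) on all 12 samples with a group term and no block. The study's Wald test with DESeq2 (1.42.0) was an alternative. Adjusted p is Benjamini-Hochberg's over the 16740 genes tested, called below 0.05. The SE is the size of the log2 fold change divided by the square root of F, and 95% intervals use the t distribution. Normalised counts are TMM-scaled counts at the mean library size, as mean ± SD. Levels per kilobase used exon lengths of GENCODE 29, which holds 58081 of the 58347 genes, and shared sequence was sought with blastn 2.17.0. The model was tested on simulated data. Promoter sequences came from RefSeq (GRCh38.p14).

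The genes and lists were chosen with earlier results of these data known. Values in every sample are given for the 10 called genes with the largest change with vemurafenib and for the largest and smallest change in each role. Examples from other lists are the 2 largest falls and rises called. Total counts per sample, 13510235 to 21534377, limit the precision of genes with few counts.

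The analysis was repeated with DESeq2 (beta prior off or on), with factors from DESeq2, upper quartiles or library totals, without the filter, with a minimum of 10 counts in all samples, on the 6 samples of a contrast, with replicate number as a block, without each sample in turn, and at a threshold of 0.01.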

Additional observations from a re-analysis of the deposited data

How the results depend on the processing

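Over the 22 alternatives (21 for the interaction), 29 of the 39 replication genes called with vemurafenib were called in each, as were 28 of 37 for the combination against DMSO and 28 of 38 for the combination against tretinoin. Counts of genes lower ran from 29 to 41, from 28 to 38 and from 28 to 37, and no sample left out took them outside 36 to 41, 32 to 38 and 34 to 37. Of all genes in each fit, 10.1% to 30%, 10.1% to 29.2% and 9.24% to 26.5% were lower. The vemurafenib calls of ORC2, GINS4, POLA2, POLD1, POLD2, POLE, RPA2 and CHAF1B were lost with upper-quartile factors and with total counts only. Those of POLD3 and RFC5 were lost with total counts only. Counts of genes higher were small and moved more. With DESeq2, with its beta prior, and with no low-count filter, tretinoin lowered 1, 2 and 1 genes relative to DMSO, and with total counts only it raised 1. Leaving out samples gave 0 to 1, the 1 being ORC5 without tretinoin replicate 3. Of all genes in the fits with DESeq2, the beta prior and no filter, 1.58%, 1.62% and 1.92% were lower with tretinoin. With total counts only, 4.53% were higher. With upper-quartile factors vemurafenib raised 4, with total counts only 5, with at least 10 counts in every sample 3, and with only the groups compared 1 (0 to 1 with samples left out, TIMELESS without tretinoin replicate 1). In those settings, in that order, vemurafenib raised 35.9%, 39.3%, 28.3% and 29.4% of all genes tested. The combination raised 2 relative to DMSO, against 0 with DESeq2, 0 with the beta prior, 1 with DESeq2 size factors, 6 with upper-quartile factors, 6 with total counts only, 0 with no filter, 0 at a threshold of 0.01 and 0 to 3 with samples left out. Of all genes tested, 36% were higher with upper-quartile factors and 37.3% with total counts only. Relative to vemurafenib the combination raised 1 with DESeq2, with the beta prior, with upper-quartile factors, with no filter and with at least 10 counts, 3 with only the groups compared and 0 to 3 with samples left out. In these settings 0.904% to 3.58% of all genes were higher. Relative to tretinoin the combination raised 4 with upper-quartile factors, 4 with total counts only, 0 with no filter, 2 with at least 10 counts, 0 at 0.01 and 0 to 1 with samples left out. Of all genes tested, 31.9% were higher with upper-quartile factors and 30.2% with total counts only. The interaction was higher for 1 gene with DESeq2 and 2 with the beta prior, against 0.301% and 0.318% of all genes. The cause of these moves was not tested.

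Deviations from the group means showed little sharing between samples of the same number (correlations -0.143 to 0.087 over 18 pairs). These values cannot show whether equal numbers mark a common culture or batch. With the replicate block, 38 genes were lower with vemurafenib, 33 were lower and 1 higher with the combination against DMSO, and 35 were lower against tretinoin. Of all genes tested in that fit, 25.1% were lower with vemurafenib. The combination had 25.4% lower and 25.8% higher against DMSO, and 23.9% lower against tretinoin.

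Genes near 0 with vemurafenib changed sign, none of them called in the analysis reported above. With upper-quartile factors the log2 fold changes were 0.127 for ORC5, 0.084 for PRIM2, 0.008 for RFC1, 0.058 for RPA1, 0.122 for LIG1 and 0.020 for WDHD1, and with total counts only 0.185, 0.142, 0.065, 0.117, 0.181 and 0.077, where POLA1 (0.039), PRIM1 (0.031) and RPA3 (0.029) also changed sign. With at least 10 counts in every sample ORC5 was at 0.034 and LIG1 at 0.030. With each sample left out in turn, ORC5 ran from -0.038 to 0.027, PRIM2 from -0.119 to 0.021 and LIG1 from -0.054 to 0.022, above 0 for ORC5 and PRIM2 without DMSO replicate 3 and for LIG1 without DMSO replicate 2 or vemurafenib replicate 1. Genes of few counts carry wider intervals, with an SE of 0.11 for POLE2 against 0.063 for CDC6.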

Other observations

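Mitosis genes, a list of 20 kept apart from replication, had members called in both directions with vemurafenib. Relative to DMSO, 9 fell (45%), 6 rose (30%) and 5 were not called, with a median log2 fold change of -0.18. The lower share was near that of genes at or above the median replication gene in mean count, 48.5%, with a median of -0.19. The higher share was above the 12.4% of those genes called higher, and near the 26.4% of all genes tested. CDC20, the activator of the anaphase-promoting complex, stood at 8167, 9073 and 9064 normalised counts in DMSO and 5844, 5700 and 5795 with vemurafenib (log2 fold change -0.60, edgeR adjusted p = 9.2e-07). The mitotic kinase AURKA fell by 0.35. CENPF, a kinetochore protein, stood at 4555, 3577 and 4693 in DMSO and 5811, 6397 and 5634 with vemurafenib, with no overlap (log2 fold change 0.48, adjusted p = 3e-04), and CCNB2, a mitotic cyclin, rose by 0.27. Tretinoin alone lowered 6 of these 20 genes, where 2.2% of all genes tested and 4.41% of those at or above the median replication gene were lower, and raised 0 (edgeR, also 0 at an unadjusted p below 0.05 and with DESeq2). The difference from the replication genes, of which edgeR called none, was not tested. AURKA fell by 0.34 with tretinoin (adjusted p = 0.0034) and CDC20 by 0.27 (adjusted p = 0.026). In the combination relative to vemurafenib edgeR and DESeq2 called 0 of the 20, and none had an unadjusted p below 0.05.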
